A study of Mus musculus with 9 samples.

Results

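Interferons are cytokines that put cells into an antiviral state. Type I interferons signal through the Ifnar1 and Ifnar2 receptor chains to a complex that includes Stat2 and Irf9 and binds an interferon-stimulated response element in its target genes. Interferon gamma signals through Ifngr1 and Ifngr2, acts on genes that carry a gamma-activated site, and strongly induces large GTPases that attack intracellular pathogens. In the heart these genes are expressed by resident and infiltrating macrophages, by endothelium and fibroblasts, and by cardiomyocytes themselves.

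The genes described here are 33 interferon-stimulated genes, picked by symbol and sorted by role. Of these, 31 had a probe set assigned to that symbol alone, out of 18193 genes measured in all. The only probe set of Isg15 is also assigned to a second gene, and no probe set of the annotation used here carries the symbol Ifi44, so neither has a value below. Where a gene had several probe sets, the one with the highest mean over all 9 arrays was taken. RNA came from the right ventricle of C57BL6J mice, all male and 6 to 8 weeks old, with 5 arrays after pulmonary banding and 4 after a sham operation. Banding narrows the pulmonary artery, so that the right ventricle pumps against a raised pressure. Whole myocardium was used, and the sources used here do not give the time since surgery. Replicates are numbered but not stated to be separate animals, so p-values measure the spread between these samples, which may be technical. In bulk tissue, fewer cells of a type and less RNA per cell cannot be told apart.

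Values are log2 expression as the authors deposited them, between 2.20, the floor of the table, and 16.43. Dim means a group mean below 4.20, the floor plus 2 log2 units. Folds against a dim group are lower bounds, written "at least", and no fold is given where both groups were dim. Array medians lay between 3.23 and 3.31, and precision is limited by how many arrays there are. Ventricular cardiomyocyte markers were high in both groups, averaging 14.89 to 15.15 in banding and 15.21 to 15.27 in sham. Liver transcripts were also present. Over 15 liver genes the mean ran from 2.90 to 5.02 on the banding arrays, with the highest on replicate 5, and from 9.10 to 13.09 on the sham arrays, with the highest on replicate 4.

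Close to their start, part of these genes hold letters that match motifs of interferon-activated factors. In RefSeq promoters of the GRCm38.p6 build, running from 250 bases before to 50 bases after each annotated start, 25 of the 33 genes had a window. GAAANNGAA, the core of the interferon-stimulated response element, was searched on both strands, so also as TTCNNTTTC, and TTCNNNGAA, the gamma-activated site, which reads the same on both strands, was searched as it stands. Matches of both motifs may overlap each other. The response element core was present in 16 of the 25 genes (64.0%), against 9.76% of all 27025 genes in the promoter table. The gamma-activated site was present in 7 (28.0%), against 9.55% of all genes. The stretches below are shown because they belong to genes that rose, to the GTPases that did not, and to Irf1. They read 5′ to 3′ on the gene's strand, with each match in capitals.

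Ifit1, chr19:34640755-34640838, plus strand: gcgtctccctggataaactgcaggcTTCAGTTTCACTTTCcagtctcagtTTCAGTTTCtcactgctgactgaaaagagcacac
Ifit3, chr19:34583349-34583460, plus strand: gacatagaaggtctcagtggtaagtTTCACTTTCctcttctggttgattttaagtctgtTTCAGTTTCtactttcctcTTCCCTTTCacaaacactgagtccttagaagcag
Bst2, chr8:71537563-71537633, minus strand: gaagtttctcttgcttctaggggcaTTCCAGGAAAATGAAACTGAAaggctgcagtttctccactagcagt
Stat2, chr10:128270252-128270310, plus strand: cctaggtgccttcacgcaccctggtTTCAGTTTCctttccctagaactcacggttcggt
Irf8, chr8:120736162-120736238, plus strand: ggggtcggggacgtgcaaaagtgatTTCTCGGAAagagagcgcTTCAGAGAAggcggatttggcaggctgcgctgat
B2m, chr2:122147523-122147581, plus strand: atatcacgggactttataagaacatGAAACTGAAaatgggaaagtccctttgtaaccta
Gbp2, chr3:142620580-142620638, plus strand: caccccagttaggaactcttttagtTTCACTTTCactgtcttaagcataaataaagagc
Igtp, chr11:58199486-58199555, plus strand: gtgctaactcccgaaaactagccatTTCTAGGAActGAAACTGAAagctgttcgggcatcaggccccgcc
Irgm1, chr11:48871411-48871475, minus strand: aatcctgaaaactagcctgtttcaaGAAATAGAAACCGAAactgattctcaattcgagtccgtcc
Irf1, chr11:53769899-53769957, plus strand: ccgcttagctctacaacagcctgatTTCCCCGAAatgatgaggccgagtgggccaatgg

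Ifit1 and Ifit3 each held 3 copies of the response element core. In Ifit1 they began 109, 103 and 84 bases before the start. Bst2 held 2 overlapping copies, the first of which also overlapped a gamma-activated site, and Irgm1 held 2 copies 30 and 24 bases before its start. Irf8 and Irf1 held only gamma-activated sites, 2 and 1 of them. All 4 GTPase genes with a window (Gbp2, Gbp3, Igtp and Irgm1) held the response element core, as did 9 of 13 antiviral effectors, 2 of 6 signalling genes and 1 of 2 class I genes. By the calls given below, it was present in 8 of 16 genes that rose and in 6 of 7 that did not pass. A match describes these letters only and was not tested for binding.

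Most of the interferon-stimulated genes were higher in banding, among them most antiviral effectors, signalling factors and class I genes. Of the 31 measured, 19 rose (61.3%), 1 fell (3.23%) and 11 did not pass the threshold, an adjusted p of 0.05 in limma over all genes. Over all 18193 genes, 18.4% were called higher and 20.0% lower. Many of those genes were dim in both groups, and over the 11013 that were not, 29.8% were higher and 32.2% lower. Banding and sham arrays did not overlap in 18 of the 31 genes (58.1%), against 36.7% of all genes. Over the 11013 genes not dim in both groups, 6466 did not overlap, so the 31 genes lie near that share. The median difference was 0.78 log2 units over the 31 genes, against 0.00 over all genes and -0.01 over the 11013 genes not dim in both groups. The rises were moderate, from 1.56-fold to 3.40-fold in the 17 called genes with neither group dim. Of the 19 rises, 15 kept their call when any single array was left out. The plot of differences by role shows each gene with its standard error.

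**Figure D1:**
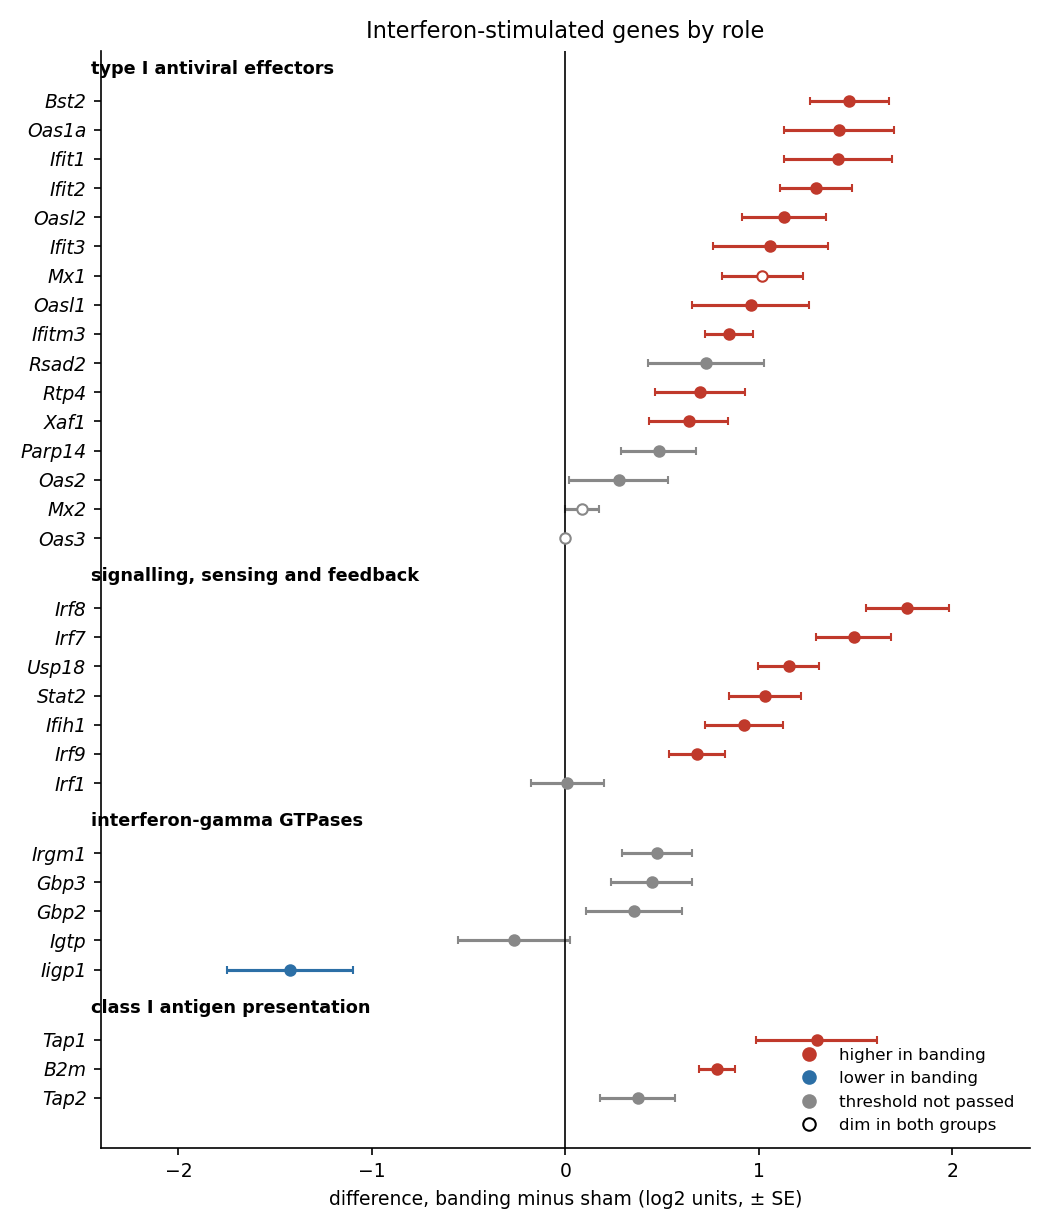
Difference between banding and sham for 31 interferon-stimulated genes in log2 units, points with standard errors, grouped by role; red passed the threshold and is higher in banding, blue passed and is lower, grey did not pass, and open points are dim in both groups. The antiviral effectors and signalling factors lie mostly to the right of 0, up to 1.77 for Irf8, while Iigp1 lies at -1.42.

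The same arrays differed in cell type markers. For the counts below, the shares over all genes were 18.4% higher and 20.0% lower. Over genes not dim in both groups they were 29.8% and 32.2%. Macrophage and monocyte markers rose in 13 of 14 genes, and their mean level ran from 9.79 to 10.38 on the banding arrays and from 8.54 to 8.90 on the sham arrays. Fibroblast markers rose in 9 of 10, with a mean level of 12.31 to 12.66 in banding and 10.44 to 10.68 in sham. Endothelial markers rose in 7 of 10, with a mean level of 8.97 to 9.45 in banding and 8.63 to 8.98 in sham. Ventricular cardiomyocyte markers went mostly the other way and fell in 7 of 12 and rose in 1, with a mean level of 14.89 to 15.15 in banding and 15.21 to 15.27 in sham. The 12 T and NK cell markers and the 6 B cell markers all had dim group means, among them Cd3e, Cd4 and Ms4a1. Within the dim range Klrd1, a receptor of NK cells, averaged 3.63 in banding and 2.39 in sham and passed as higher (adjusted p = 0.000448). Banding replicate 3 stood above the dim level for Cd3d, at 5.30, and Cd8a, at 5.02, and the mean of the 12 genes was 3.24 there, against 2.48 to 2.52 on the other banding arrays and 2.36 to 2.56 in sham. Of 11 markers of plasmacytoid and conventional dendritic cells, 2 rose and 1 fell, with a mean level of 3.94 to 4.25 in banding and 3.79 to 3.83 in sham. Tcf4 rose by 1.24 log2 units and Zbtb46 by 0.68, both also expressed in other cell types, and Bcl11a fell. The other 8 were dim in both groups, among them Siglech, which marks plasmacytoid dendritic cells. Neutrophil markers rose in 1 of 6 genes, with a mean level of 3.96 to 5.06 in banding and 3.63 to 4.97 in sham. The rises among dendritic cell markers (18.2%) and neutrophil markers (16.7%) are near the share over all genes. The part that the numbers of any of these cells have in the rises of interferon-stimulated genes was not tested.

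Among the type I antiviral effectors, 11 of 16 measured genes rose (68.8%), 0 fell and 5 did not pass. The shares called higher were 18.4% over all genes and 29.8% over genes not dim in both groups. No effector was lower at an unadjusted p of 0.05 in limma either. Their median difference was 0.90 log2 units.

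The Ifit genes encode tetratricopeptide proteins that bind foreign RNA and block its translation. Ifit1 stood at 8.13, 8.82, 8.72, 7.81 and 7.62 on banding replicates 1 to 5, against 6.56, 7.04, 6.76 and 6.88 on sham replicates 1 to 4. Every banding value lay above every sham value, with the highest on banding replicates 2 and 3. Ifit1 rose 2.66-fold (log2 1.41 ± 0.28, SE, adjusted p = 0.00481). Ifit2 averaged 9.42 ± 0.31 in banding and 8.13 ± 0.25 in sham (SD, n = 5 and 4), a rise of 2.46-fold (1.30 ± 0.19, adjusted p = 0.00103). Ifit3 stood at 9.78, 10.56, 10.19, 9.21 and 9.33 on the banding arrays, against 8.45, 8.96, 8.90 and 8.70 on the sham arrays. The groups did not overlap, yet its 2.08-fold rise (adjusted p = 0.0244) lost the threshold without banding replicate 3 (adjusted p = 0.0555), sham replicate 1 (0.0697) or sham replicate 4 (0.0588).

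The 2′-5′ oligoadenylate synthetases make a second messenger that switches on an RNA-degrading enzyme, and the Oasl genes are relatives of theirs. Oas1a stood at 7.86, 8.82, 8.77, 7.72 and 7.69 on the banding arrays, against 6.71, 6.77, 6.89 and 6.67 on the sham arrays. Again replicates 2 and 3 were the highest of the banding group, about 1 log2 unit above replicates 1, 4 and 5, while the sham values lay close together. Oas1a rose 2.66-fold (1.41 ± 0.29, adjusted p = 0.00542) and Oasl2 2.19-fold (1.13 ± 0.22, adjusted p = 0.00434). The family did not move as a block. Oas2 averaged 6.86 ± 0.49 in banding and 6.59 ± 0.19 in sham, with overlapping groups (0.28 ± 0.26, adjusted p = 0.473). Oas3 was listed at the floor on all 9 arrays. Oasl1 averaged 4.71 ± 0.51 in banding and 3.76 ± 0.39 in sham, where it was dim. Its rise of at least 1.43-fold (adjusted p = 0.0396) touched the sham range, since banding replicates 4 and 5 stood at 4.21 and 4.11 and sham replicate 3 at 4.21. That call was lost without banding replicate 1, 2 or 3 or sham replicate 1, 2 or 4, with an adjusted p of up to 0.105. It was also lost with values floored at the dim level (0.53, adjusted p = 0.145) and after quantile normalisation (0.86, adjusted p = 0.0521).

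Bst2 encodes tetherin, a membrane protein that holds budding virus particles on the cell surface. It stood at 8.437, 9.072, 9.002, 8.672 and 8.080 on the banding arrays, against 7.11, 7.26, 7.18 and 7.19 on the sham arrays. The groups were far apart, and the sham values spanned a narrow range. Bst2 had the largest rise among the effectors, 2.77-fold (1.47 ± 0.20, adjusted p = 0.000903). Ifitm3, which blocks the entry of viruses from endosomes, averaged 13.21 ± 0.21 in banding and 12.36 ± 0.17 in sham. It rose 1.79-fold (0.84 ± 0.12, adjusted p = 0.00118), and the groups did not overlap.

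Rsad2, which encodes viperin, did not pass. It stood at 10.31, 10.47, 10.32, 9.91 and 9.13 on the banding arrays, against 9.13, 9.09, 9.77 and 9.21 on the sham arrays. Banding replicate 5 lay within the sham range, and without it the difference of 0.73 log2 units (adjusted p = 0.101) became 0.95 (adjusted p = 0.00895). Its other probe sets gave 0.87 and 0.64. Parp14, an ADP-ribosyltransferase, averaged 8.00 ± 0.39 in banding and 7.52 ± 0.06 in sham, with overlapping groups and a difference of 0.48 (adjusted p = 0.0921), or 0.59 without banding replicate 5 (adjusted p = 0.0347).

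Rtp4, an interferon-induced receptor transporter protein, and Xaf1, a pro-apoptotic partner of the inhibitor XIAP, passed narrowly. Rtp4 rose 1.62-fold (0.70 ± 0.23, adjusted p = 0.0491) and Xaf1 1.56-fold (0.64 ± 0.20, adjusted p = 0.0421). Leaving out any 1 array but banding replicate 5 ended the call of Rtp4, with adjusted p up to 0.113. For Xaf1 any 1 array but banding replicates 4 and 5 did so, with adjusted p up to 0.106, and a second, dim probe set differed by -0.06. Averaging both probe sets of Xaf1 gave 0.29 log2 units and ended the call (adjusted p = 0.0766), and averaging those of Rtp4 gave 0.51 (adjusted p = 0.0592). Without banding replicate 3, sham replicate 1 or sham replicate 4 the effectors called higher numbered 7 instead of 11, the missing ones being Ifit3, Oasl1, Rtp4 and Xaf1.

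The Mx genes encode dynamin-like GTPases that trap viral nucleocapsids, and C57BL/6 mice carry defective alleles of both. Mx1 was dim in both groups, at 3.69, 4.44, 3.52, 3.65 and 3.56 on the banding arrays, against 2.54, 2.76, 2.66 and 3.05 on the sham arrays. It passed the threshold (1.02 ± 0.21, adjusted p = 0.00596) without a measured fold, and not with values floored at the dim level (0.05, adjusted p = 0.705). Mx2 lay at 2.67 to 3.08 in banding and at 2.67 in sham and did not pass.

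**Figure D2:**
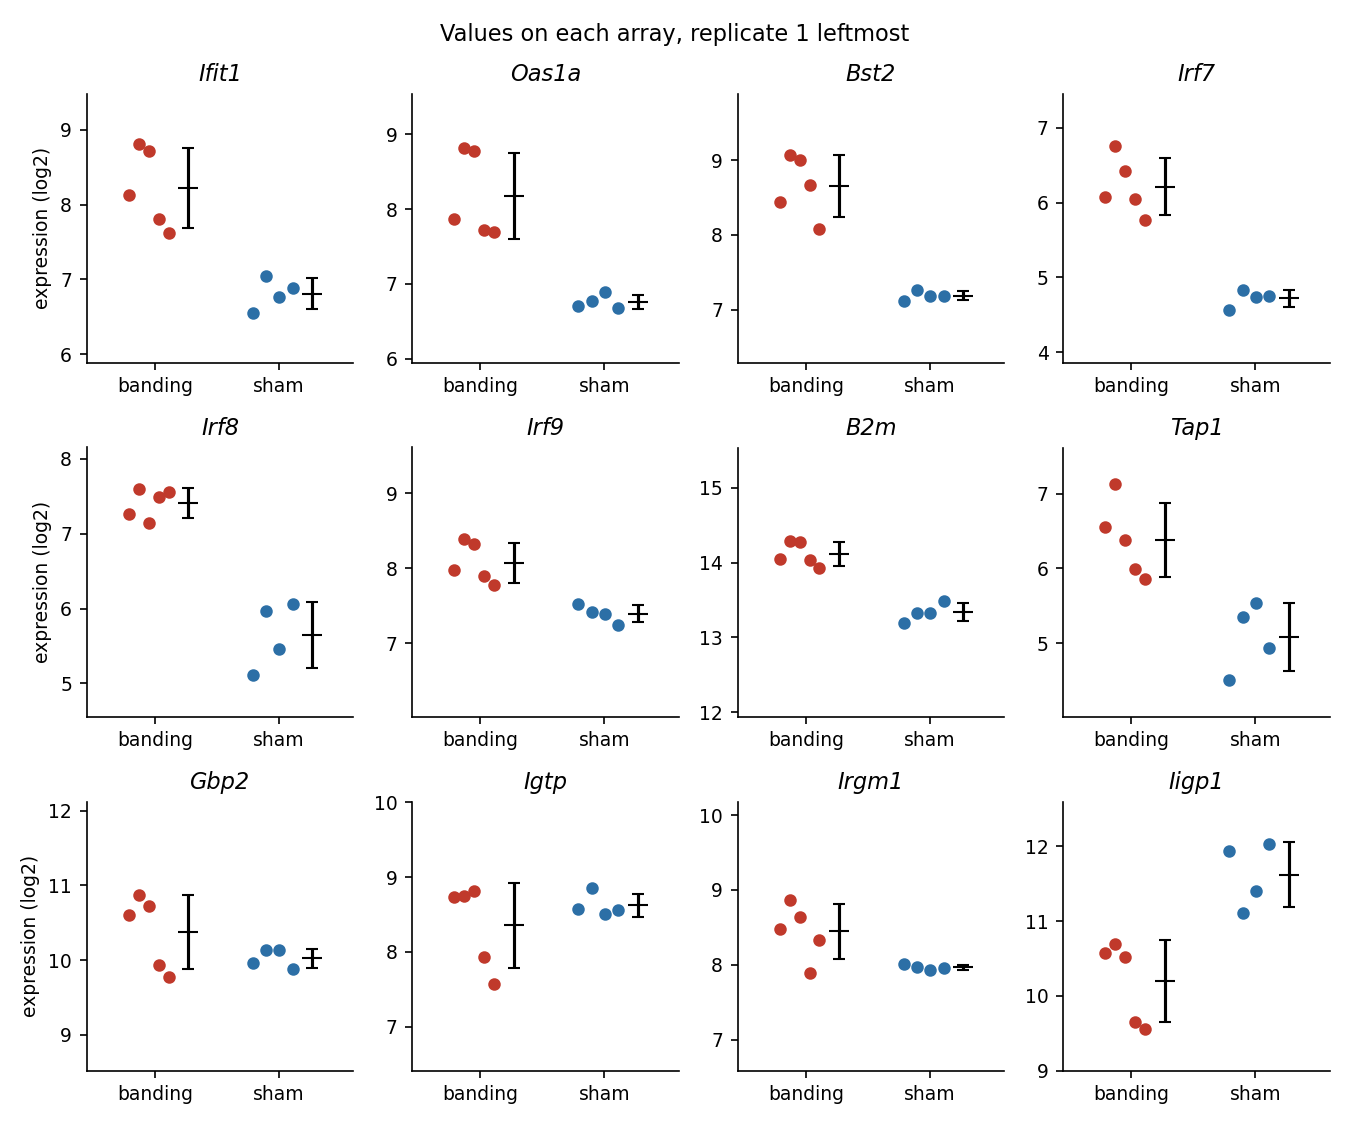
Log2 expression of 12 interferon-stimulated genes on each array, banding (red, 5 arrays) left of sham (blue, 4 arrays), replicate 1 leftmost in each group; bars are mean ± SD and each panel spans the same log2 range. Bst2 and Irf7 are fully separated, Igtp and Gbp2 overlap, and every banding value of Iigp1, 9.56 to 10.69, lies below its sham values, 11.11 to 12.04.

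Of the 7 genes of signalling, sensing and feedback, 6 rose (85.7%), 0 fell and Irf1 did not pass. Of all genes 18.4% were higher, and of genes not dim in both groups 29.8%. All 6 rises kept their call without any single array, with a median difference over the 7 genes of 1.03 log2 units.

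Stat2 and Irf9 belong to the type I transcription complex. Stat2 stood at 6.03, 6.50, 6.58, 5.85 and 6.17 on the banding arrays, against 5.14, 5.47, 4.89 and 5.29 on the sham arrays. It rose 2.04-fold (1.03 ± 0.18, adjusted p = 0.00306). Averaging its probe sets gave 0.68 log2 units. Irf9 averaged 8.07 ± 0.27 in banding and 7.39 ± 0.12 in sham, a rise of 1.60-fold (0.68 ± 0.14, adjusted p = 0.00645). Both were above their sham range on every banding array.

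Irf7 amplifies type I interferon production and is itself induced by interferon. It stood at 6.07, 6.76, 6.42, 6.05 and 5.77 on the banding arrays, against 4.56, 4.83, 4.74 and 4.76 on the sham arrays. The gap between the groups was wide, and the rise was 2.81-fold (1.49 ± 0.19, adjusted p = 0.000674). Irf8, a factor of monocyte, macrophage and dendritic cell development, rose most of all 31 genes, 3.40-fold (1.77 ± 0.21, adjusted p = 0.000472). Its banding values were 7.26, 7.60, 7.15, 7.49 and 7.56, against 5.11, 5.96, 5.45 and 6.06 in sham. Here the order of the banding arrays was a different one, since replicate 3 was the lowest and replicate 5 the second highest.

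Usp18 takes ISG15 off its targets and restrains signalling at the type I receptor. It averaged 7.88 ± 0.31 in banding and 6.72 ± 0.11 in sham and rose 2.22-fold (1.15 ± 0.16, adjusted p = 0.000851). Ifih1 encodes MDA5, a sensor of long double-stranded RNA, and rose 1.90-fold (0.92 ± 0.20, adjusted p = 0.00783). Irf1, an early target of interferon gamma, stood at 8.29, 8.26, 8.01, 7.78 and 7.61 on the banding arrays, against 7.60, 7.91, 8.21 and 8.19 on the sham arrays. The ranges nearly coincided. Its difference of 0.01 ± 0.19 (adjusted p = 1) turned to -0.01 after quantile normalisation and to -0.03 with arrays centred on their medians.

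Of the 5 listed GTPases of the interferon gamma response, 0 rose, Iigp1 fell and 4 did not pass in limma. Of all genes 18.4% were higher and 20.0% lower, so the 1 fall among these 5 (20.0%) is near that share. Over genes not dim in both groups the shares were 29.8% and 32.2%. At an unadjusted p of 0.05 Irgm1 alone of these 5 was higher. GTPases of this response outside the 33 genes were not all alike. Gbp7 rose by 0.87 log2 units (adjusted p = 0.00683) and Ifi47 by 0.82 (adjusted p = 0.0109), while Gbp6, Gbp8 and Irgm2 did not pass. These genes were chosen for naming after their values were seen. Gbp2 and Gbp3 encode guanylate-binding proteins, and Igtp and Irgm1 encode regulators of the immunity-related GTPases. Gbp2 stood at 10.60, 10.87, 10.73, 9.93 and 9.78 on the banding arrays, against 9.96, 10.13, 10.14 and 9.88 on the sham arrays. Replicates 1 to 3 lay above the sham arrays, and replicates 4 and 5 within or below their range (0.35 ± 0.25, adjusted p = 0.351). Gbp3 differed by 0.45 ± 0.21 (adjusted p = 0.152) and passed without banding replicate 5 (0.58, adjusted p = 0.0397). Irgm1 averaged 8.44 ± 0.37 in banding and 7.97 ± 0.03 in sham (0.48 ± 0.18, adjusted p = 0.0777), and passed without banding replicate 4 (0.61, adjusted p = 0.00601). Igtp averaged 8.36 ± 0.57 in banding and 8.62 ± 0.16 in sham (-0.26 ± 0.29, adjusted p = 0.555), with banding replicates 4 and 5 at 7.93 and 7.57 below all sham arrays.

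Iigp1 encodes an effector GTPase that is loaded onto the vacuoles of intracellular parasites. It stood at 10.57, 10.69, 10.53, 9.65 and 9.56 on the banding arrays, against 11.93, 11.11, 11.41 and 12.04 on the sham arrays. Every banding value lay below every sham value, which makes it the only one of the 31 genes that separated in that direction. Iigp1 fell by 1.42 log2 units (SE 0.33, adjusted p = 0.0102), 2.68-fold lower, and its second probe set differed by -1.27 ± 0.32. Sham replicate 4, which had the highest mean of the 15 liver genes, 13.09, also had the highest Iigp1. The other sham arrays, at 10.52, 9.96 and 9.10 for the liver genes on replicates 1, 2 and 3, stood at 11.93, 11.11 and 11.41 for Iigp1. Without sham replicate 4 and banding replicate 5 together the difference was -1.13 (adjusted p = 0.0512), and each array left out alone kept the call. The part of liver RNA in this difference was not tested.

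In class I antigen presentation, 2 of 3 genes rose (66.7%), 0 fell and Tap2 did not pass. The share called higher was 18.4% over all genes and 29.8% over genes not dim in both groups, and 3 genes are few. B2m, the light chain of every class I molecule, was the brightest of the 31 genes, at 14.05, 14.29, 14.28, 14.04 and 13.93 on the banding arrays, against 13.20, 13.32, 13.33 and 13.49 on the sham arrays. It rose 1.72-fold (0.78 ± 0.09, adjusted p = 0.000425), with the groups apart and little spread within them. Tap1 and Tap2 form the transporter that feeds peptides to class I molecules. Tap1 stood at 6.55, 7.12, 6.38, 6.00 and 5.86 on the banding arrays, against 4.51, 5.35, 5.54 and 4.94 on the sham arrays. It rose 2.46-fold (1.30 ± 0.31, adjusted p = 0.0127). Its 3 other probe sets lay at or near the floor, so the mean of all 4 gave 0.32. Tap2 averaged 7.22 ± 0.36 in banding and 6.85 ± 0.19 in sham (0.37 ± 0.19, adjusted p = 0.189).

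The banding arrays varied together across most of these genes. Over the 28 genes above the dim level in at least 1 group, that is without Oas3, Mx1 and Mx2, banding replicate 2 held the highest value of its group in 18 genes and replicate 3 in 8. Replicate 5 held the lowest in 22 genes and replicate 4 in 5. Over all 11013 genes not dim in both groups, replicate 2 was the highest in 20.8% and replicate 3 in 13.2%, while replicate 5 was the lowest in 26.5% and replicate 4 in 18.2%, so that the 5 of 28 genes of replicate 4 are near the share in all genes. The spread within banding exceeded the spread within sham in 27 of the 28 genes, with median SDs of 0.39 in banding and 0.19 in sham. Over all genes not dim in both groups it did so in 53.9%, with median SDs of 0.16 in banding and 0.15 in sham. The order was alike in part in 42 other type I interferon-induced genes. Of these, replicate 2 was highest in 20, replicate 3 highest in 16 and replicate 5 lowest in 24. Replicate 1 was lowest in 11 of the 42 but in 0 of the 28 genes, against 24.1% of all genes not dim in both groups. The banding spread was the larger one in 30 of those 42, with median SDs of 0.33 in banding and 0.18 in sham. Banding replicate 5 lay above every sham array in 17 of the 28 genes and replicate 4 in 20, against 26, 26 and 25 for replicates 1 to 3. Replicates 5 and 4 lay below every sham array in 4 and 3 genes, and replicates 1 to 3 in 1 each. These counts for single arrays were not made over all genes. Of the 11013 genes not dim in both groups, 6466 had groups that did not overlap, in either direction. Macrophage markers ran otherwise, with their highest mean level, 10.38, on banding replicate 5 and their lowest, 9.79, on replicate 1. Endothelial markers averaged 8.97 on replicate 5 and 9.38 to 9.45 on the other banding arrays. Fibroblast markers were highest on replicate 2, at 12.66, and lowest on replicates 4 and 5, at 12.36 and 12.31. Neutrophil markers averaged 5.03 and 5.06 on replicates 2 and 3 and 3.96 to 4.55 on the other banding arrays. The part of these cells in the order of the banding arrays was not tested.

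**Figure D3:**
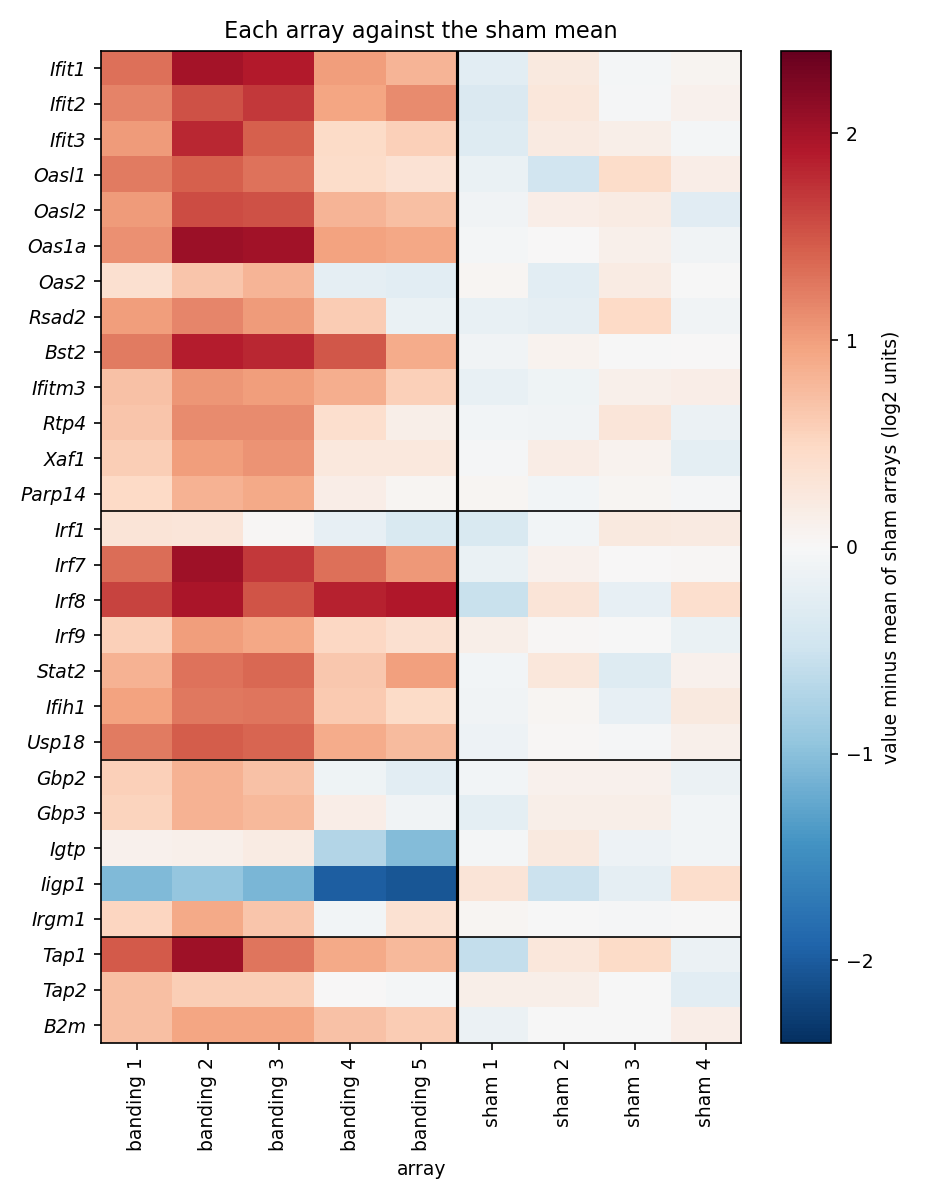
Each cell is the log2 value of 1 gene on 1 array minus the mean of the 4 sham arrays, for 28 interferon-stimulated genes, banding arrays on the left and sham arrays on the right, with lines between roles. Banding replicates 2 and 3 are the deepest red for most effectors, Irf8 is about even over the 5 banding arrays, and Iigp1 is blue on all of them.

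Interferon transcripts themselves were not detected above the dim level. All 10 measured ligand genes were dim in both groups, and 0 passed in limma, also at an unadjusted p of 0.05. Ifng was listed at the floor on all 9 arrays. Ifnb1 reached 2.41 on banding replicate 5 and 2.37 on sham replicate 3 and lay at the floor elsewhere. A level this low says only that the transcript was not measurable on these arrays.

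The receptors changed unequally. Of 19 genes of receptors and proximal signalling, 7 rose (36.8%), 4 fell (21.1%) and 8 did not pass. Over all genes 18.4% were higher and 20.0% lower, and over genes not dim in both groups 29.8% and 32.2%. Ifnar1 averaged 7.84 ± 0.12 in banding and 6.86 ± 0.14 in sham and rose 1.96-fold (0.97 ± 0.08, adjusted p = 0.00011), while Ifnar2 averaged 9.75 ± 0.10 in banding and 9.72 ± 0.05 in sham (0.03 ± 0.05, adjusted p = 0.765). The probe sets of Ifnar2 disagreed, since their mean gave 0.46 (adjusted p = 0.000106), and with arrays centred on their medians its difference was -0.01. Ifngr1 rose 1.51-fold (0.60 ± 0.07, adjusted p = 0.000552). Ifngr2 averaged 9.97 ± 0.20 in banding and 10.95 ± 0.18 in sham and was 1.97-fold lower (-0.98 ± 0.13, adjusted p = 0.000665), or -0.56 when its probe sets were averaged. Both chains of each receptor are needed for signalling. Ptpn6, the phosphatase SHP-1 of blood cells, rose 2.60-fold, or by 0.75 log2 units when its probe sets were averaged.

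**Figure D4:**
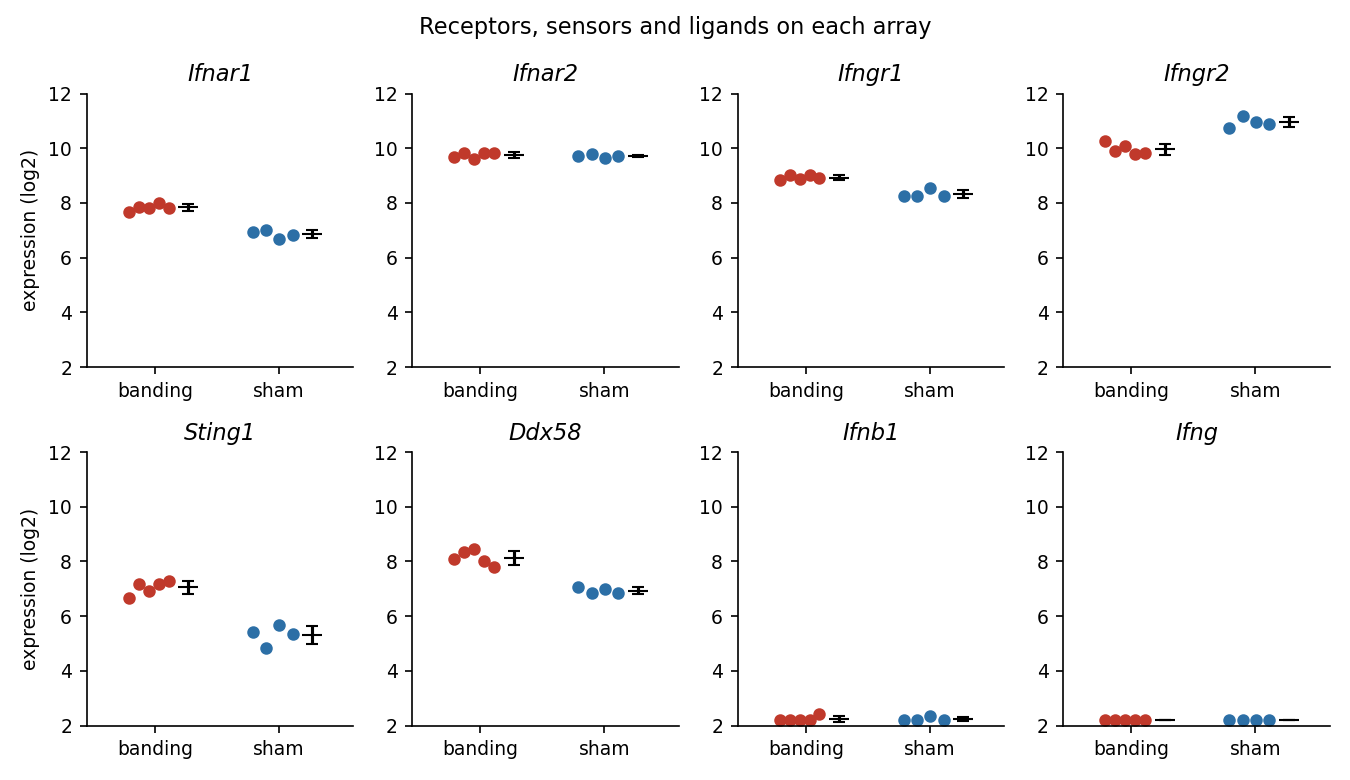
Log2 expression of interferon receptor chains, 2 nucleic acid sensing genes and 2 interferon ligands on each array, banding (red, 5 arrays) left of sham (blue, 4 arrays), with mean ± SD. Ifnar1, Ifngr1, Sting1 and Ddx58 are higher in banding, Ifngr2 is lower, and Ifnb1 and Ifng lie at or near the floor of 2.20.

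Nucleic acid sensors and their adaptors were higher in 9 of 20 genes (45.0%) and lower in 1 (5.00%), with 10 not passing. The same shares over all genes were 18.4% and 20.0%, and 29.8% and 32.2% over genes not dim in both groups. Sting1, the adaptor of cytosolic DNA sensing, stood at 6.68, 7.18, 6.93, 7.19 and 7.28 on the banding arrays, against 5.42, 4.85, 5.66 and 5.34 on the sham arrays. It rose 3.33-fold (1.74 ± 0.19, adjusted p = 0.000307), and the groups were far apart. Ddx58, which encodes the RNA sensor RIG-I, rose 2.29-fold (1.20 ± 0.13, adjusted p = 0.000339), and averaging its probe sets gave 0.75 log2 units. Unc93b1, which carries nucleic acid-sensing Toll-like receptors to endosomes, rose 1.93-fold, and Myd88, their adaptor, 1.54-fold. The gene that fell was Mavs (-0.25, adjusted p = 0.0433), chosen for naming after its values were seen. Without any one of banding replicates 2, 4 and 5 and sham replicates 1 and 4 the list had 0 genes lower.

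Of 46 other type I interferon-induced genes, 25 rose (54.3%), 0 fell and 21 did not pass in limma, with a median difference of 0.62 log2 units. All genes had 18.4% higher and 20.0% lower, with a median difference of 0.00. For genes not dim in both groups these were 29.8%, 32.2% and -0.01. At an unadjusted p of 0.05, 1 of the 46 was lower. Ifitm2, a relative of Ifitm3, averaged 12.36 ± 0.04 in banding and 11.46 ± 0.10 in sham and rose 1.87-fold (0.90 ± 0.04, adjusted p = 1.9e-05). Shisa5 rose 2.95-fold (adjusted p = 2.58e-05), Ms4a4c 4.53-fold, and Slfn5 of the Schlafen family 2.50-fold, or by 0.64 log2 units when its probe sets were averaged.

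Of 18 other genes induced by interferon gamma, 6 rose (33.3%), 2 fell (11.1%) and 10 did not pass. The shares over all genes were 18.4% higher and 20.0% lower, and 29.8% and 32.2% over genes not dim in both groups. In banding and sham alike, 7 of the 18 were dim. The median difference was 0.09. Cxcl10, a chemokine, rose 7.60-fold, with banding values of 6.65 to 7.81 and sham values of 3.66 to 4.71 (2.93 ± 0.29, adjusted p = 0.000202). Cxcl9, a related chemokine whose induction depends most on interferon gamma, averaged 7.33 ± 0.62 in banding and 7.07 ± 0.22 in sham and did not pass (0.26 ± 0.32, adjusted p = 0.593). Banding replicates 4 and 5 held its lowest banding values, 6.90 and 6.46. Ctss, a lysosomal protease abundant in macrophages, rose 5.19-fold, and the adhesion molecules Icam1 and Vcam1 rose 1.62-fold and 1.96-fold.

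Of 13 other genes of class I presentation, 4 rose (30.8%), 1 fell (7.69%) and 8 did not pass. None was dim in both groups. Over all genes not dim in both groups 29.8% were higher and 32.2% lower, so the 4 rises are near that share. H2-D1, a class I heavy chain, rose 2.13-fold (1.09 ± 0.15, adjusted p = 0.000946). Averaging its probe sets gave 0.58 log2 units. H2-K1, the other classical heavy chain of this strain, averaged 11.82 ± 0.34 in banding and 11.34 ± 0.22 in sham and did not pass (0.49 ± 0.19, adjusted p = 0.0863). Its difference passed when its probe sets were averaged (0.59, adjusted p = 0.0281), without banding replicate 5 (0.59, adjusted p = 0.0367) and with the filter on dim genes (adjusted p = 0.0343). The class I heavy chains are close relatives, and probe sets may detect more than 1 of them. Psmb8 and Psmb9, subunits of the interferon-inducible immunoproteasome, did not pass, with differences of 0.47 (adjusted p = 0.059) and 0.28 (adjusted p = 0.428). Psmb8 passed without banding replicate 5 (0.56, adjusted p = 0.0244) and with the filter on dim genes (adjusted p = 0.0227). Psme1, a proteasome activator subunit, fell by 1.08 log2 units (adjusted p = 0.00121). Pdia3, a chaperone of peptide loading and of protein folding at large, rose 2.06-fold (adjusted p = 6.66e-05). Averaging its probe sets gave 0.64 log2 units.

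**Figure D5:**
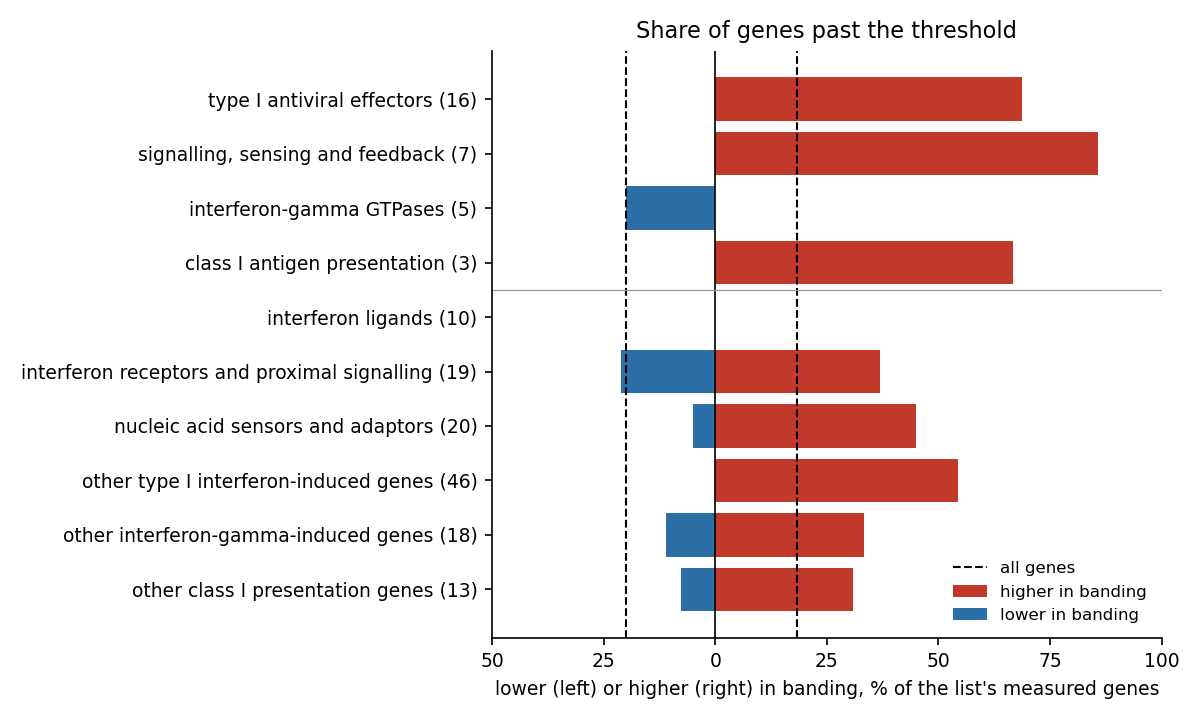
Share of each list's measured genes, with their number in brackets, that passed the threshold higher in banding (red, right) or lower in banding (blue, left); dashed lines mark the 18.4% higher and 20.0% lower among all genes. Signalling genes (85.7% higher) and antiviral effectors (68.8% higher) reach farthest right, and the 5 listed GTPases have 0 higher and 20.0% lower.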

How the data were processed

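Right ventricular RNA of 5 banding and 4 sham samples was hybridised to Affymetrix mouse arrays. The authors deposited normalised log2 values for each probe set. Per the submitters' processing notes RMA and GCRMA were used, without version or order, and their range shows the log2 scale. Values were not transformed again. Of 45101 probe sets, 64 controls, 9160 that name no gene and 932 that name several were left out. The remaining 34945 name 18193 genes. No filter on dim genes was applied. Probe set names follow the platform annotation, which can be old.

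Differences are banding minus sham, fitted with limma 3.58.1 in R 4.3.3 (lmFit and eBayes, two-sided, without covariates). P-values were adjusted over 18193 genes by Benjamini-Hochberg, with a threshold of 0.05. The labels give no batch. The fit was tested on simulated data. Members and lists were chosen with earlier results of these data known, and lists are described by counts and medians without a set test. All members may be named. Of each other pathway list the up to 4 past the threshold with the smallest p may be named, and a few receptor, ligand, chemokine and class I genes whatever their p. Alternatives covered probe set choice, scaling, floor, filter, variance model, a block for replicate numbers and leaving out arrays. Tables and figures used Python 3.11.15, pandas 2.3.3 and matplotlib 3.10.9.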

Additional observations from a re-analysis of the deposited data

Results flagged for a closer look

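Over 109 groups of 4 or 5 arrays, 5 held a sample set apart from its group by Dixon's criterion, and chance flags about 1 in 20 groups. Banding replicate 2 stood apart in both Mx genes. Mx1 was 4.444 there and 3.695 on the next highest banding array, and Mx2 was 3.076 there and 2.684 on the next. Both genes were dim in both groups. Sham replicate 3 stood apart in Rtp4, at 9.104 against 8.751 on the next highest sham array, and in Ifngr1, at 8.551 against 8.258. Sham replicate 1 stood apart in Psmb9, at 6.719 against 7.346 on the next lowest sham array. No explanation was tested for any of these values.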

How the results depend on the processing

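Over the 18 alternatives, genes called higher in the whole table ran from 2549 to 3674 (3356 in the fit reported) and genes called lower from 2728 to 4140 (3633). Interferon-stimulated genes called higher, 19 in the fit reported, numbered 15 to 22 when 1 array was left out and 16 to 21 under the other alternatives. One alternative, leaving out sham replicate 4 and banding replicate 5 together, was chosen after seeing the data.

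Same-numbered banding and sham samples did not deviate together (correlations of 0.0357, 0.00449, -0.0343 and -0.0166). These values show no sign that the numbers pair the samples, but so few pairs cannot exclude it. With the replicate number as a block, 21 interferon-stimulated genes were higher and 0 lower. Under the block 1 GTPase was higher and 0 lower, 0 sensors were lower, 1 other interferon gamma gene was lower, and Iigp1 differed by -1.26 (adjusted p = 0.110). The block also ended the call of Oasl1 (1.11, adjusted p = 0.0945), while Psmb8 passed under it (0.56, adjusted p = 0.0438). Without sham replicate 4 and banding replicate 5, 0 interferon-stimulated genes, 0 GTPases and 0 sensors were lower.

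The filter on dim genes gave 1 GTPase higher, 7 other class I genes higher and 1 other type I gene lower. Quantile normalisation gave 0 sensors and 1 other type I gene lower, and centring on array medians 1 other type I gene lower. Averaged probe sets gave 1 other interferon gamma gene lower, as did floored values and leaving out x and s probe sets, which also gave 2 other class I genes lower. Irf1 turned to -0.0135 after quantile normalisation and to -0.0314 with centring, and Ifnar2 to -0.0117 with centring.

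When 1 array was left out, 7 to 13 effectors were higher, 0 to 1 GTPases were higher, 0 to 1 sensors were lower, 0 to 1 other type I genes were lower, 1 to 2 other interferon gamma genes were lower, and 2 to 7 other class I genes were higher. The difference of Irf1 ran from -0.11 to 0.11. The cause of these changes was not tested. Transcripts below the dim level have no measured order here.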
